A study of Homo sapiens with 4 samples.

Results

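The proteasome genes described here were the genes read by probe sets that the platform annotation ties to exactly 1 symbol beginning with PSM, a letter from A to G and a number, leaving out the interferon-induced PSMB8 and PSMB9. The rule reads the name and no measured value. The pattern took 95 probe sets of 48 genes, of 19775 genes tested in all. Of these, 40 genes with 79 probe sets encode proteasome subunits, assembly factors or regulators. They were sorted into the alpha ring (7 genes) and beta ring (8) of the 20S core, the ATPases (5) and the non-ATPase subunits (9) of the 19S cap, assembly factors (7), and other caps with an inhibitor (4). The remaining 8, antisense RNAs, divergent transcripts and proteins named as partners of a subunit or activator, are described last. PSMA6 and PSME2 shared their probe sets with another symbol, and with PSMB11, PSMC5, PSMD7 and PSMD13 they were not analysed here.

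CaSki is an established human cervical squamous carcinoma line that carries human papillomavirus. The cells received either GFP, the control, or ZNF750 by lentivirus, and both groups share that line, the transduction and a growth medium whose serum content is given as 0%. Each group had 2 Affymetrix HG-U133 Plus 2.0 arrays of total RNA, named biological duplicates, and the sources used here do not name the promoter that drives the introduced genes. How the duplicate cultures were made is not stated, so p-values measure the spread between these arrays. ZNF750 is a zinc finger protein of squamous epithelia that drives terminal differentiation, and the study asked which genes it regulates in carcinoma cells.

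The proteasome degrades proteins tagged with ubiquitin. Its core is a barrel of alpha rings, which gate the entrance, around beta rings, some of whose subunits cut peptide bonds. The cap binds the ubiquitin tag, removes it, and uses a ring of ATPases to unfold the protein and thread it into the core. Dedicated chaperones build the rings and leave the finished particle. In dividing carcinoma cells the particle is abundant and removes cyclins and misfolded proteins. When it is impaired, the transcription factor NFE2L1 raises its subunits together through antioxidant response elements in their promoters.

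Promoters are shown first because that element is the known route of joint control, although most windows here lacked its core. RefSeq promoter windows of GRCh38.p14, 250 bases before to 50 bases from each gene's start, were found for 34 of the 40 genes. The element's core, searched as TGACNNNGC on both strands, was in 11 of the 34 windows (32.4%) and in 13.6% of all 27305 windows of the table. It was in the windows of 2 of the 12 genes that fell, PSMD9 and PSMD1, and in none for PSMG4, the gene that rose. The CCAAT box (CCAAT, both strands, no overlap with the element required or barred) was in 15 of the 34 windows (44.1%) and in 35.7% of all windows. The windows of the table were not matched to those of the proteasome genes for base composition or expression, and the shares were not tested against each other. A match is a description of letters, and binding was not measured. The stretches below give each match with 10 bases on either side, read along the strand that carries it, with the core in capitals. Further matches in PSMD1 and PSMD3 lay too near the window's end to be shown with both flanks.
PSMD9, chr12:121888631-121888659, - strand: gcgcctgtggTGACCCGGCaggagtagcg
PSMD9, chr12:121888678-121888706, + strand: cggcttccggTGACCCAGCtccgccctaa
PSMD5, chr9:120843038-120843066, - strand: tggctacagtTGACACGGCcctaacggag
PSMG1, chr21:39183616-39183644, - strand: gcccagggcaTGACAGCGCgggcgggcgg
PSMG2, chr18:12658689-12658717, + strand: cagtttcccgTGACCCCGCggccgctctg
PSMB3, chr17:38752627-38752655, + strand: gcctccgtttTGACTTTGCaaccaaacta
PSMC4, chr19:39971182-39971210, - strand: tcctccatagTGACCAAGCcggcctctgt
PSMD3, chr17:39980760-39980788, + strand: tcccctttgtTGACTCGGCcatcggcctg
PSMD12, chr17:67366724-67366752, - strand: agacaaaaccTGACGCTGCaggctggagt
PSME1, chr14:24136098-24136126, + strand: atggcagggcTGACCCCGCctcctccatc
PSME4, chr2:53971009-53971037, + strand: gctctgctggTGACGCTGCagccgccggg

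For a gene that fell with 2 core matches (PSMD9), a gene that fell with CCAAT matches (PSMA5) and the gene that rose (PSMG4), the 250 bases before the start follow, along the gene's strand. Capitals mark either motif. Both matches of PSMD9 lie within a short stretch, and neither motif was found before the start of PSMG4.
PSMD9, chr12:121888540-121888789, + strand: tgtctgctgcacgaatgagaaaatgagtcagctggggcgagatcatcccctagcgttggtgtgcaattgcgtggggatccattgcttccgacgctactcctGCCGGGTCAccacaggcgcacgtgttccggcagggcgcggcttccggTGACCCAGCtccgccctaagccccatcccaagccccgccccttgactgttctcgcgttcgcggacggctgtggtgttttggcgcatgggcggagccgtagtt
PSMA5, chr1:109426449-109426698, - strand: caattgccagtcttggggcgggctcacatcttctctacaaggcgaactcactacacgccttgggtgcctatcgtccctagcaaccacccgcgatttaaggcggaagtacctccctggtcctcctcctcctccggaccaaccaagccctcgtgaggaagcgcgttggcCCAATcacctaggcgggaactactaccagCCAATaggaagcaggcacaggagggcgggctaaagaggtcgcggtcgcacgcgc
PSMG4, chr6:3258697-3258946, + strand: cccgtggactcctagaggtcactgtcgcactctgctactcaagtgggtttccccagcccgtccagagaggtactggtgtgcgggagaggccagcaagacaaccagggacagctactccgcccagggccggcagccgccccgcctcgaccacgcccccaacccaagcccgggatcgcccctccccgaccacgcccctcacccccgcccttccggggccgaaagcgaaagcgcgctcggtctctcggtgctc

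Markers of squamous epithelium were bright on all arrays: of 7 listed, 5 were measured, with mean log2 values from 11.11 to 12.97. Their summed signal was log2 14.25 to 14.28 with GFP and 14.65 to 14.68 with ZNF750, so it moved with the groups. The leukocyte markers (3 of 5 measured) had means from 3.95 to 5.88 and the endothelial ones (3 of 3) from 3.62 to 6.06. Of the 5 fibroblast markers COL1A1 had the highest mean, 8.36, and the groups' summed signals met at their ends (log2 8.60 to 8.82 with GFP, 8.82 to 8.95 with ZNF750). The only ZNF750 probe set read 2.13 and 2.37 with GFP and 2.23 and 2.29 in the other arrays, near the lowest values of the table, so the introduced gene could not be seen and its arrays are named ZNF750-labelled, after their label. Where on the transcript it lies was not analysed here. The signal of ACTB probes at the 3′ end minus that at the 5′ end, which depends on RNA integrity, was 3.03 and 2.81 with GFP and 3.76 and 3.35 in the ZNF750-labelled arrays. That of GAPDH was 0.63 and 0.61, against 0.85 and 0.80. Both measures and the squamous sum therefore moved with the groups, and their part in the results was not tested.

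As deposited, most proteasome genes had slightly lower values in the ZNF750-labelled arrays. Of the 40 genes, 12 fell, 1 rose and 27 did not pass the test (limma, adjusted p under 0.05 over all 19775 genes). Those that fell encode 4 alpha-ring subunits, the inducible catalytic subunit PSMB10, 3 cap ATPases, 3 other cap subunits and the assembly chaperone PSMD9, by 8.07% (PSMD2) to 32.0% (PSMD1). The gene that rose was PSMG4, another assembly chaperone. The median difference over the 40 genes was -0.13 log2 units, a level 0.917 times that with GFP. Of the 40 differences 32 (80%) were below 0, against 42.6% over all genes tested. Among genes with a mean log2 value of 8 or more 57.9% were below 0, and 79.5% of the proteasome genes in that range. After cyclic loess, a second quantile normalization or centring on brighter genes, 26 of the 40 were below 0. The share of other genes below 0 was not counted under these scalings. The median difference of genes with a mean of 8 or more was then 0.0028, 0.0041 and 0.0021, in the same order.

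These counts need the background. Over all genes tested 10.2% fell and 7.79% rose, with a median difference of 0.04. Proteasome genes are read by bright probe sets, and brighter genes fell more often. Among the 6776 genes with a mean log2 value of 8 or more, which hold all proteasome genes but PSMA8, 23.1% fell and 12.7% rose, with a median of -0.04. In that range 12 of 39 proteasome genes (30.8%) fell and 1 (2.56%) rose, so the share that fell lay closer to that of this brighter set than to that of all genes. Many genes of the set are dimmer than the proteasome genes, whose median on single arrays was 10.94 to 11.13. No test set the 2 shares against each other. That threshold of 8 was chosen after the values were seen. The counts by class below are to be read beside these same shares.

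**Figure D1:**
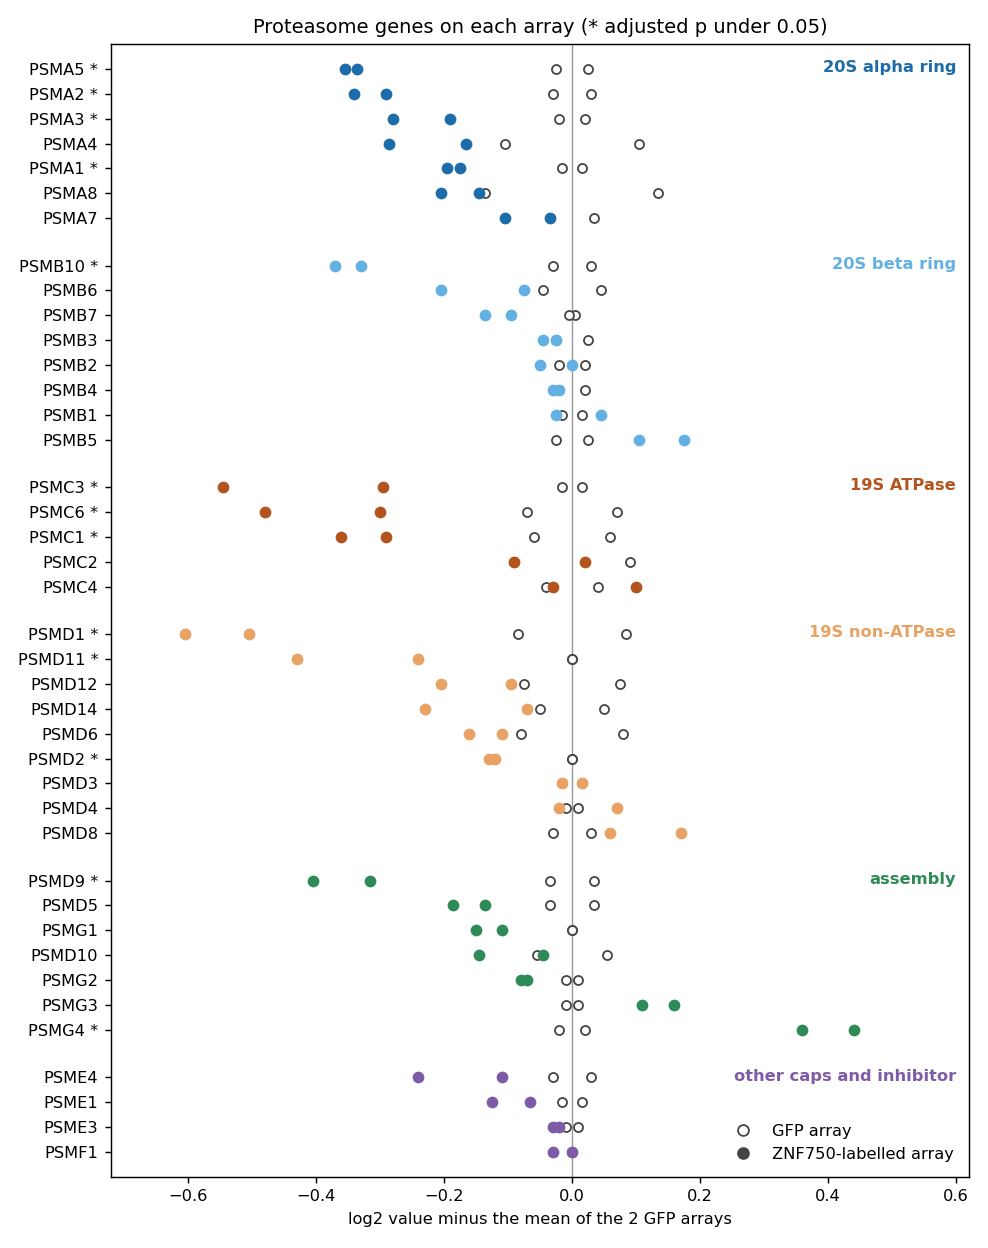
Each row is a proteasome gene and each point an array, as its log2 value minus the mean of the 2 GFP arrays. Open points are GFP arrays, filled points ZNF750-labelled arrays coloured by class, and an asterisk marks an adjusted p under 0.05 (limma). All 13 marked genes have groups that do not overlap, and PSMG4 is the only one of them to the right of 0.

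**Figure D2:**
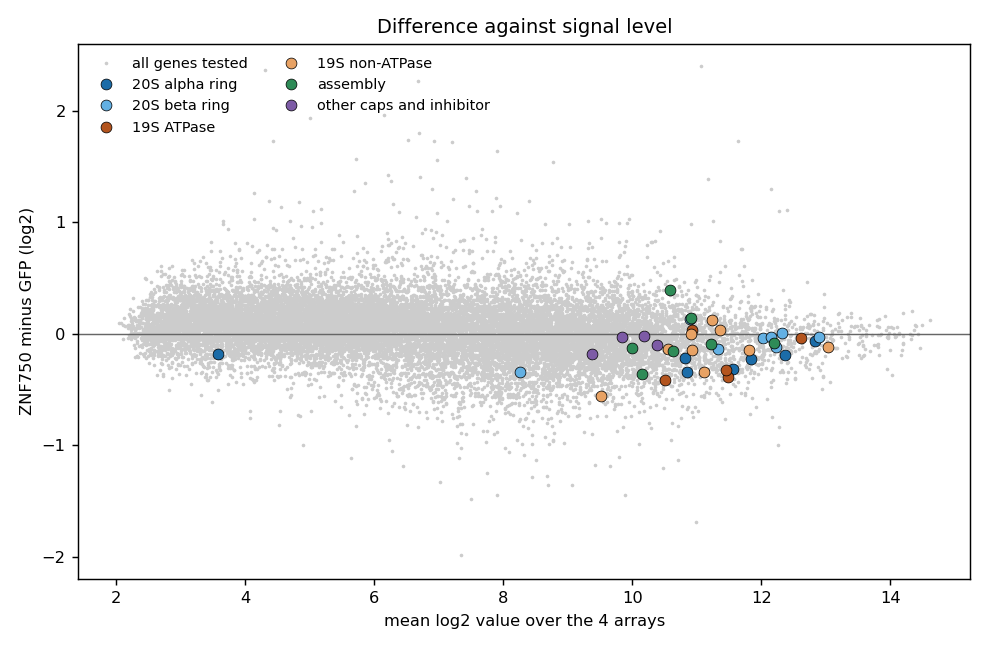
The log2 difference, ZNF750-labelled minus GFP, is plotted against the mean log2 value over the 4 arrays, with all 19775 genes in grey and the proteasome genes coloured by class. Apart from PSMA8 the proteasome genes lie between 8.26 and 13.04, and their differences range from -0.56 (PSMD1) to 0.39 (PSMG4).

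The alpha ring forms the outer rings of the core, and all 7 measured members had a difference below 0. Of these 4 fell and 0 rose (0 also at an unadjusted limma p under 0.05), and the median was -0.22. PSMA5 read 11.00 and 11.05 with GFP and 10.67 and 10.69 in the ZNF750-labelled arrays. The pairs of arrays lay far apart relative to the gaps within them, and the difference was -0.34 ± 0.043 log2 units (limma standard error, n = 2 per group, adjusted p = 0.00241). PSMA2 read 11.76 and 11.70 with GFP against 11.39 and 11.44, a difference of -0.32 ± 0.042 (adjusted p = 0.00270). PSMA3 gave 11.97 and 11.93 with GFP against 11.76 and 11.67, which is -0.23 ± 0.044 (adjusted p = 0.0112). PSMA1 was at 12.47 and 12.44 with GFP and at 12.28 and 12.26 otherwise, -0.19 ± 0.035 (adjusted p = 0.0102). In none of these 4 genes did the groups overlap, which is not evidence apart from the call.

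The other alpha-ring genes did not pass. PSMA4 read 11.03 and 10.82 with GFP and 10.76 and 10.64 in the ZNF750-labelled arrays (-0.22 ± 0.074, adjusted p = 0.0786). Its difference was close to that of PSMA3, but its GFP arrays lay further apart. PSMA7 read 12.84 and 12.91 against 12.77 and 12.84 (-0.07 ± 0.041), with overlapping groups. PSMA8, the form made in testis, read 3.53, 3.80, 3.52 and 3.46 in the same order, where RMA understates differences.

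The beta ring carries the cutting sites, and none of its constitutive members passed in the fit over all genes. Of 8 genes, 1 fell and 0 rose (1 at an unadjusted limma p under 0.05), with a median of -0.03. The gene that fell was PSMB10, the inducible subunit that replaces PSMB7 in the immunoproteasome. It read 8.41 and 8.47 with GFP and 8.11 and 8.07 in the ZNF750-labelled arrays (-0.34 ± 0.065, adjusted p = 0.0106). None of the constitutive catalytic subunits passed in that fit, and their differences did not share a sign. PSMB5, the chymotrypsin-like site, read 10.80 and 10.85 with GFP against 10.93 and 11.00 (0.13 ± 0.046, adjusted p = 0.0907). PSMB6, the caspase-like site, read 11.36 and 11.45 against 11.20 and 11.33 (-0.14 ± 0.056, adjusted p = 0.135). PSMB7, the trypsin-like site, read 12.29 and 12.28 against 12.19 and 12.15 (-0.12 ± 0.036, adjusted p = 0.0573). In other limma fits PSMB7 fell: with the mean of probe sets (-0.30, adjusted p = 0.0184) and with genes below the median level left out (0.0300). That mean includes a dim probe set of PSMB7, which read 5.54 and 5.83 with GFP against 5.19 and 5.20. It gave -0.49 ± 0.13 and did not pass. With replicate number as a block PSMB7 (0.0482) and PSMB6 (0.0463) fell. PSMB5 rose under the scalings described below. The structural subunits PSMB1, PSMB2, PSMB3 and PSMB4 had differences between -0.04 and 0.01 on their brightest probe sets, each within 1 standard error of 0. Their other probe sets gave -0.23 (PSMB4) to 0.28 (PSMB2), and none passed.

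Of the ATPases, which unfold the substrate, 3 of 5 fell and 0 rose (0 also at an unadjusted limma p under 0.05), with a median of -0.33. PSMC3 read 10.74 and 10.71 with GFP and 10.18 and 10.43 in the ZNF750-labelled arrays, -0.42 ± 0.079 (adjusted p = 0.01). Its ZNF750-labelled arrays lay further apart than its GFP arrays, and without the lower of them, replicate 1, the difference was -0.30. PSMC6 read 11.75 and 11.61 against 11.38 and 11.20 (-0.39 ± 0.070, adjusted p = 0.00865). PSMC1 read 11.68 and 11.56 against 11.26 and 11.33 (-0.33 ± 0.052, adjusted p = 0.00564). PSMC1 and PSMC3 are among the ATPases whose tails dock into the alpha ring and open its gate. The other ATPases had overlapping groups on their brightest probe sets. PSMC2 read 12.73 and 12.55 with GFP against 12.66 and 12.55 (-0.04 ± 0.064), and PSMC4 read 10.87 and 10.95 against 10.88 and 11.01 (0.03 ± 0.056). Another probe set of PSMC2 read 8.73 and 8.58 with GFP against 8.90 and 8.85 (0.22 ± 0.072). A dimmer one gave -0.07 ± 0.11, and neither passed.

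Of the non-ATPase cap subunits, 3 of 9 fell and 0 rose (0 also at an unadjusted limma p under 0.05), with a median of -0.14. PSMD1, a large scaffold subunit of the cap's base, had the largest difference of all 40 genes. It read 9.88 and 9.71 with GFP and 9.29 and 9.19 in the ZNF750-labelled arrays, -0.56 ± 0.071, or 1.47-fold lower (adjusted p = 0.00245). The groups were separated by more than either pair's own gap. PSMD11, a lid subunit that braces the cap against the core, read 11.29 in both GFP arrays and 10.86 and 11.05 otherwise (-0.34 ± 0.064, adjusted p = 0.0106). PSMD2, the partner scaffold of PSMD1, read 13.10 in both GFP arrays and 12.97 and 12.98 otherwise (-0.12 ± 0.031, adjusted p = 0.0344). That fall of 8.07% was the smallest called, and without limma's intensity trend it did not pass (adjusted p = 0.273).

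The other cap subunits did not pass. PSMD14, the enzyme that removes the ubiquitin chain, read 11.93 and 11.83 with GFP against 11.81 and 11.65 (-0.15 ± 0.061, adjusted p = 0.146). PSMD12, a lid subunit, read 11.08 and 10.93 against 10.91 and 10.80 (-0.15 ± 0.064, adjusted p = 0.161). PSMD6, also of the lid, read 10.70 and 10.54 against 10.51 and 10.46 (-0.14 ± 0.060, adjusted p = 0.165). In these 3 genes the difference was smaller than the larger gap between replicates. PSMD8 was 0.12 ± 0.050 higher (adjusted p = 0.160), PSMD3 differed by less than 0.01, and PSMD4, a ubiquitin receptor, by 0.03 ± 0.045.

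Taking the core and the cap as wholes, 5 of 15 core genes (33.3%) and 6 of 14 cap genes (42.9%) fell. In either 0 rose (1 and 0 at an unadjusted limma p under 0.05), and both medians were -0.14. Over all genes tested 10.2% fell, and 23.1% of those with a mean of 8 or more. At an unadjusted limma p under 0.05, 3162 of the 19775 genes were higher and 3129 lower. A difference between the classes was not tested.

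Of the 7 assembly factors 1 rose and 1 fell, with a median of -0.09. PSMG4, which pairs with PSMG3 as an alpha-ring chaperone, read 10.37 and 10.41 with GFP and 10.75 and 10.83 in the ZNF750-labelled arrays. That was a 1.31-fold rise (0.39 ± 0.048, adjusted p = 0.00221), with groups well apart. PSMG3 lay on the same side at 10.83 and 10.85 against 10.95 and 11.00 but did not pass (0.14 ± 0.044, adjusted p = 0.0742). The other chaperone pair differed the opposite way without passing, PSMG1 at 10.06 on both GFP arrays against 9.91 and 9.95 (-0.13 ± 0.048, adjusted p = 0.108) and PSMG2 by -0.08 ± 0.035 (adjusted p = 0.184).

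The chaperones of the cap's base were lower in mean. PSMD9 fell, from 10.29 and 10.36 with GFP to 9.92 and 10.01 (-0.36 ± 0.053, 1.28-fold lower, adjusted p = 0.00431). PSMD5 read 10.76 and 10.69 against 10.59 and 10.54 and missed the threshold (-0.16 ± 0.048, adjusted p = 0.0586). PSMD10, also known as gankyrin, differed by -0.09 ± 0.053 with overlapping groups.

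None of the 4 genes for other caps and the inhibitor passed in limma (0 rose and 0 fell, and 0 and 1 at an unadjusted p under 0.05). PSME4, an alternative cap of the nucleus, read 9.49 and 9.43 with GFP against 9.35 and 9.22 (-0.18 ± 0.063, adjusted p = 0.102) on its brightest probe set. Its dimmer probe sets went the opposite way, at 0.16 ± 0.061 and 0.31 ± 0.1, with groups that did not overlap, and neither was called. Averaged over its probe sets PSME4 gave 0.1, also without a call, so its direction depends on the probe set read. PSME1, a subunit of the interferon-responsive activator, read 10.41 and 10.44 against 10.30 and 10.36 (-0.10 ± 0.047, adjusted p = 0.211). PSME3, the nuclear activator, read 9.87 and 9.85 against 9.83 and 9.84 (-0.03 ± 0.048). PSMF1, an inhibitor of the core, differed by -0.02 ± 0.045.

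Several probe sets read the same gene, and they did not always give the same answer. In the fit over all 54613 probe sets, 20 of the 79 proteasome probe sets fell and 2 rose, against 7.19% and 4.30% of all probe sets. That background is mostly dimmer, with array medians of 5.45 to 5.51. No share was counted for brighter probe sets, so the contrast is not matched for brightness. Of the 22 genes with more than 1 probe set, all probe sets fell for 4, some but not all passed for 8, and none passed for 10. The 4 were PSMA1 (3 probe sets, -0.23 to -0.17), PSMD1 (-0.56 and -0.45), PSMD11 (-0.34 and -0.49) and PSMD9 (-0.36 and -0.37). For these genes the fall does not depend on which probe set is read.

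Other calls rest on the probe set chosen for its brightness. PSMA2 fell on its brightest probe set but gave -0.03 ± 0.089 on the other (9.64 and 9.44 with GFP, 9.6 and 9.41 otherwise). PSMA5 gave 0.07 ± 0.12 on a dim probe set with values from 5.18 to 5.39. PSMG4 was read by 5 probe sets, and the 4 dimmer ones, none above 5.97 on any array, gave -0.14 to 0.12 and did not pass. PSMA3 gave -0.16 ± 0.11 and -0.17 ± 0.12 on its other probe sets, both dim, which did not pass. PSMG4 was the only one of the 40 genes whose probe sets differed by more than 0.5 log2 units. With the mean of probe sets the differences were -0.18 for PSMA2 (adjusted p = 0.0826), -0.18 for PSMA3 (0.0895), -0.14 for PSMA5 (0.172), -0.12 for PSMD2 (0.0538) and 0.08 for PSMG4 (0.596), none of which passed. By the same mean PSMB7 (-0.30, adjusted p = 0.0184), PSMD10 (-0.27, 0.0219) and PSME3 (-0.18, 0.0468) fell.

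Conversely, 4 genes had a call only on a dimmer probe set. PSMD10 read 9.93 and 9.76 with GFP and 9.40 on both other arrays on that probe set (-0.44 ± 0.068, adjusted p = 0.00773). PSMF1 read 9.15 and 9.11 against 8.75 and 8.74 (-0.39 ± 0.059, adjusted p = 0.00753). PSME3 gave -0.23 ± 0.051 (adjusted p = 0.0298), and PSMD4 was higher by 0.23 ± 0.050 (adjusted p = 0.0284). The positions of the probes on the transcripts were not analysed here.

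**Figure D3:**
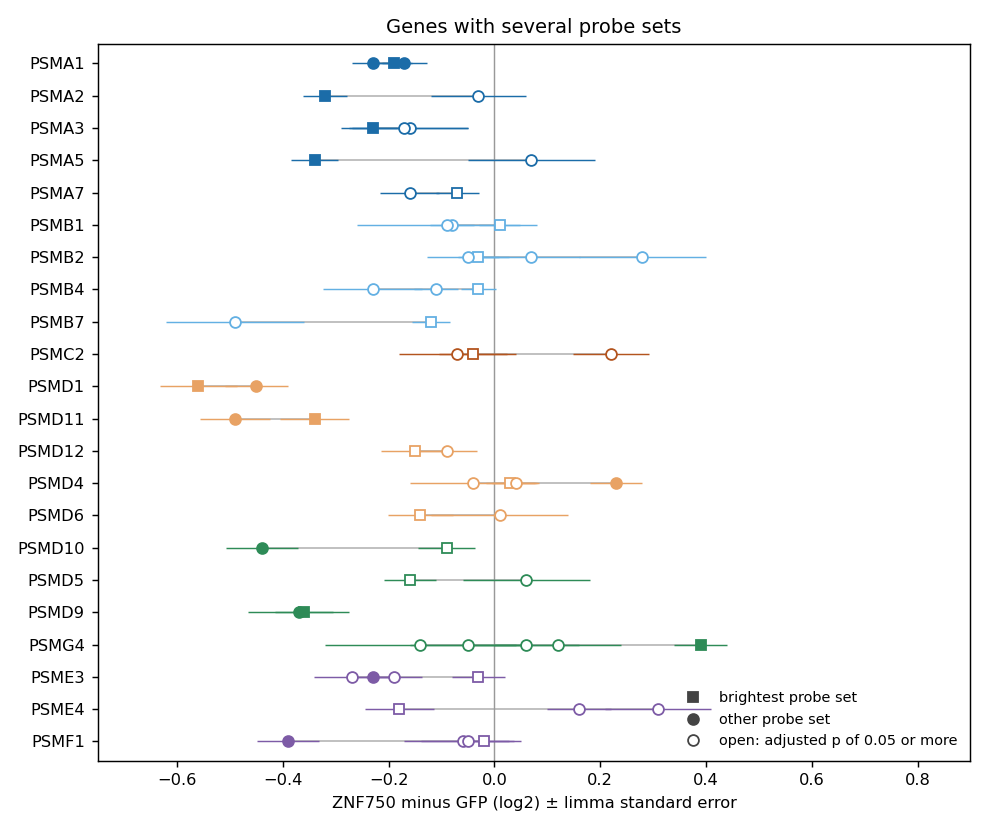
Rows are the 22 proteasome genes with more than 1 probe set, and points are the log2 difference (ZNF750-labelled minus GFP) of each probe set with limma's standard error, in the fit over all probe sets. Squares mark the brightest probe set of a gene, circles the others, filled symbols an adjusted p under 0.05 and open ones 0.05 or more. PSMA1, PSMD1, PSMD11 and PSMD9 have filled symbols throughout, whereas PSMG4 spans -0.14 to 0.39.

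The calls depended on having both GFP arrays. With 1 array left out, 1 residual degree of freedom remains, the group of 2 alone gives the spread, and the lone array is assumed to vary like it. Without GFP replicate 1, and likewise without GFP replicate 2, 0 proteasome genes rose or fell (limma; at an unadjusted p under 0.05, 12 fell and 1 rose without replicate 1, and 17 fell and 3 rose without replicate 2). Without ZNF750 replicate 1, 8 fell and 1 rose, and without ZNF750 replicate 2, 7 fell and 1 rose. Over all genes the number that fell was 58, 99, 1155 and 932 in the same order, and the number that rose 59, 77, 593 and 703. The sizes moved less than the calls: with 1 array left out PSMD1 stayed between -0.64 and -0.47, PSMA5 between -0.37 and -0.32, PSMC3 between -0.55 and -0.30, and PSMG4 between 0.35 and 0.43. Limma's variance prior also mattered, since without its intensity trend 2 genes fell and 1 rose.

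Scaling changed the balance of the calls. After cyclic loess or a second quantile normalization, 11 proteasome genes fell and 4 rose, and after centring on brighter genes 11 fell and 3 rose. PSMB5 and PSMG3 rose under all 3 scalings and PSMD8 under the first pair, and PSMD2 no longer fell under any. The median difference of the 40 genes was then -0.068, -0.062 and -0.08 in the same order. Over all genes, falls made up 56.6% of the calls as deposited and 51.1%, 50.8% and 42.9% under these scalings. Among genes with a mean log2 value of 8 or more the shares were 64.5%, then 50.8%, 50.4% and 51.3%. For the proteasome genes they were 92.3%, then 73.3%, 73.3% and 78.6%. The 12 genes that fell had differences below 0 under these scalings, with 1 array left out and with the mean of probe sets. They were picked as lower on the same arrays, so a kept sign is not independent support. Without suffixed probe sets those with a value were also below 0, but PSMA2 gave only -0.03 (adjusted p = 0.848).

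**Figure D4:**
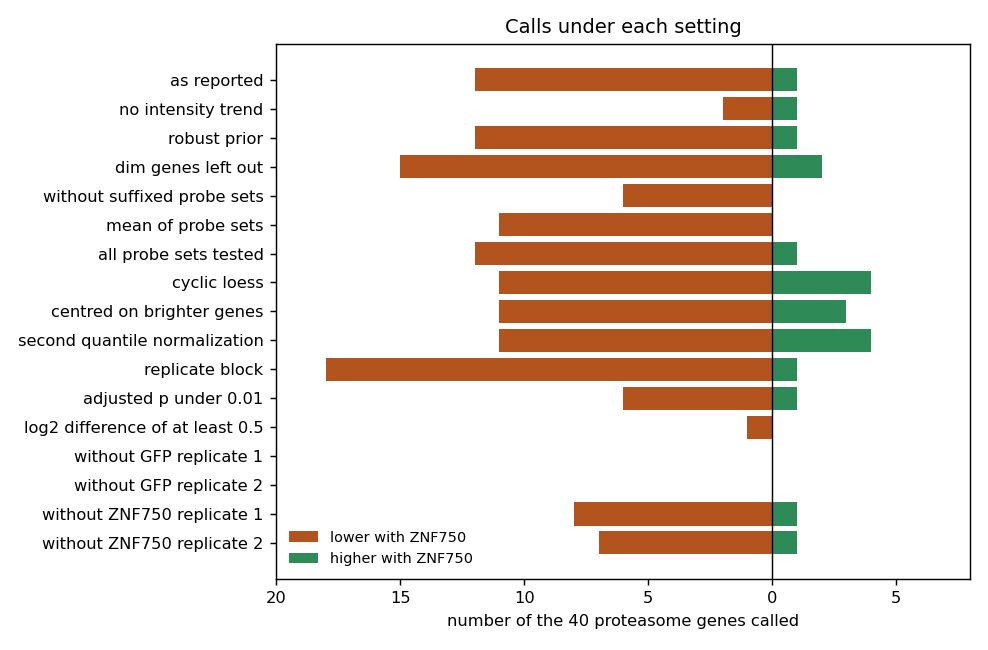
Bars give the number of proteasome genes called lower (left) and higher (right) in the ZNF750-labelled arrays under each setting, from the 12 and 1 reported to 0 and 0 when either GFP array is left out. All settings cover 40 genes except that without dim genes (39) and that without suffixed probe sets (31).

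Other genes of the pathway, with PSMB8 and PSMB9 among them, were listed separately, and 28 of 33 were measured, of which 8 (28.6%) fell and 4 (14.3%) rose. Those shares lie near the 23.1% and 12.7% of genes with a mean of 8 or more. The other 16 did not pass, and the median difference was -0.09. Enzymes at the ubiquitin end were among those that fell. UBA1, which activates ubiquitin, read 10.57 and 10.56 with GFP against 10.12 and 10.17 (-0.42 ± 0.047, adjusted p = 0.00154). VCP, the segregase that delivers substrates, read 10.54 and 10.40 against 9.97 and 10.16 (-0.41, adjusted p = 0.0107). PAAF1, a cap assembly factor, fell by 0.33 on the log2 scale, NGLY1, which removes glycans from NFE2L1, by 0.30, and the cap-bound proteins TXNL1 and USP14 by 0.24 and 0.18.

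Those that rose included a subunit and the regulator. ADRM1, the ubiquitin receptor of the cap, read 10.79 and 10.84 against 11.05 and 11.06 (0.24, adjusted p = 0.00751). NFE2L1 read 10.49 and 10.57 against 10.74 and 10.71 (0.20, adjusted p = 0.0277) on its brightest probe set. Its protein was not measured, and a link between it and the proteasome genes was not tested. ECPAS, an adaptor of the particle, rose by 0.26 and ZFAND5, an activator of it, by 0.19. The assembly factor POMP differed by -0.07, the small cap subunit SEM1 by -0.04, and the related factor NFE2L2 by -0.10, none of which passed. Of the interferon-inducible genes left out of the members, PSMB9 fell (-0.23, adjusted p = 0.0397) and PSMB8 did not pass (-0.17, adjusted p = 0.0955). TAP2, a peptide transporter, fell by 0.29 and TAP1 gave -0.08, which did not pass.

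The 8 genes that match by name but belong to no class were counted apart, and 2 rose, 1 fell and 5 did not pass. Over all genes tested 7.79% rose and 10.2% fell. The mean levels of these 8 ran from 2.81 to 9.79, and so few genes do not set their shares apart from that background. PSMC3IP, a factor of meiotic recombination, read 9.35 and 9.28 with GFP against 9.72 and 9.75 (0.42 ± 0.054, adjusted p = 0.00261), and both its probe sets rose. PSMB8-AS1, an antisense RNA, read 5.55 and 5.5 against 6.17 and 6.10 (0.61 ± 0.10, adjusted p = 0.00651), but its other probe set gave -0.15 and did not pass. PSMA3-AS1 read 8.80 and 8.54 against 8.33 and 8.05 (-0.48 ± 0.12, adjusted p = 0.0276), in the same direction as PSMA3, while its other probe sets gave -0.40 and -0.13 and did not pass. Signal from a gene and its antisense partner was not separated here beyond the annotation. PSME3IP1, which binds PSME3, gave 0.20 and did not pass, though another of its 4 probe sets was higher by 0.24 (adjusted p = 0.0375) and the remaining ones gave -0.19 and -0.08. PSMD6-AS2 (0.10), PSMD7-DT (0.35), PSMG3-AS1 (0.21) and PSMD14-DT (0.11) did not pass, and the last 3 were dim, with no array above 4.95.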

How the data were processed

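The 4 arrays' deposited log2 values cover 54675 probe sets in 1 table. RMA produced them, per the submitters' processing notes, which name no version. RMA compresses differences of dim probe sets. No detection calls were used, and the number of arrays limits the precision. Symbols came from the platform annotation and matched RefSeq with 0 changes. The 62 control probe sets were left out. Each gene was read by its single-symbol probe set with the highest mean over the 4 arrays. Differences, ZNF750 minus GFP, came from limma 3.58.1 (R 4.3.3; lmFit, eBayes with an intensity trend, 2 residual degrees of freedom), with Benjamini-Hochberg adjustment over 19775 genes or, for probe sets, 54613. An adjusted p under 0.05 was a call, "rose" or "fell". Errors are limma's standard errors. The fit was checked on simulated data.

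The members and lists were chosen with earlier results of these data known. Every member is named. Values per array are given for each that passed and for up to 3 others per class with the largest difference. Probe sets of 1 gene are described where they differ by over 0.5 log2 units or were called in opposite directions, and others were added after their values were seen. An exact permutation test of 2 against 2 arrays cannot reach 0.05 and was not run.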

Additional observations from a re-analysis of the deposited data

How the results depend on the processing

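The 12 genes that fell stayed below 0 under the settings that change the values (scalings, probe set choice, arrays left out) where they had one, though PSMA2 gave only -0.03 without suffixed probe sets. These settings use again the arrays on which the 12 were picked, so the kept sign is not independent support. The other settings change the test alone. With no intensity trend 713 genes rose and 782 fell over all genes. Of the proteasome genes 2 fell then, 1 in the 20S core, 1 in the 19S cap and 0 in assembly. Without suffixed probe sets (_s_at, _x_at and _a_at), which leaves 31 proteasome genes, 1013 genes rose and 1341 fell. There 6 proteasome genes fell and 0 rose, 3 fell in the core, 3 in the cap and 0 in assembly, and PSMG4 gave -0.05 in place of 0.39 on its unsuffixed probe set. With the mean of probe sets 3 core genes, 2 assembly genes and 1 of the other caps and inhibitor fell, and 0 proteasome genes rose, 0 in assembly. With dim genes left out 2 proteasome genes rose, both in assembly, 2 assembly genes fell, and the median of all genes was -0.025 in place of 0.036. When centred on brighter genes 2529 genes rose, and 3 proteasome genes rose, 1 in the core and 2 in assembly. Cyclic loess and the second quantile normalization each gave 4 that rose, 1 in the core, 1 in the cap and 2 in assembly. At an adjusted p under 0.01, 635 genes rose and 1000 fell, and 6 proteasome genes fell, 2 in the core and 3 in the cap. Asking for a log2 difference of at least 0.5 as well left 447 and 448 genes, and of the proteasome genes 1 fell, a cap gene, with 0 in the core and in assembly, and 0 rose. With the replicate block 18 proteasome genes fell, 8 of them in the core and 2 in assembly, and 1 rose. The labels give both groups replicates 1 and 2 but no shared origin, so the numbers were not taken to pair the arrays. Gaps between replicates correlated by 0.16 across genes. Leaving out 1 array at a time gave 59 to 703 genes that rose and 58 to 1155 that fell. Of the proteasome genes 0 to 8 fell and 0 to 1 rose, with 0 to 3 falls in the core, 0 to 4 in the cap and 0 to 1 in assembly, where 0 to 1 rose. The robust prior and testing all probe sets changed 0 calls of the proteasome genes. The cause of these changes was not tested.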
